A study of Mus musculus with 18 samples.

Results

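The comparison described here is between RNA of mouse embryonic epidermis with oncogenic Hras and an shRNA against Eif2b5, and RNA of wild-type epidermis with a scrambled shRNA. It uses 6 of the 18 samples of the series, namely the 3 RNA libraries of HrasG12V shEif2b5 and the 3 RNA libraries of WT shScram, and every gene of the deposited coding-sequence count table that passed the filter on low counts (10823 of 20655 rows). Per the labels, animals called HrasG12V belonged to the FR-HrasG12V strain, and those called WT carried the fluorescent reporter allele Gt(ROSA)26Sortm4(ACTB-tdTomato,-EGFP)Luo. In both groups the shRNA was delivered to the embryo's skin in utero at E9.5, and the epidermis was taken at E18.5, freed from the dermis with dispase and dispersed with trypsin, with cycloheximide present throughout. The labels name basal cells as the source, but no Cre driver that would switch on the Hras allele, no selection of transduced cells, and no separate animals or litters behind the 3 libraries, so the p-values speak of the spread among these libraries, which may be technical. The study held no WT shEif2b5 group, so strain, Hras genotype and shRNA cannot be told apart within this comparison. RNA of HrasG12V shScram, the third group of the study, and ribosome footprints of the 2 groups compared are given beside single results as context.

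HRAS is a small GTPase that passes growth factor signals to the RAF, MEK and ERK kinases, and the G12V form stays in its active state. ERK in turn raises transcription of its own inhibitors, among them the Dusp phosphatases and the Sprouty proteins, and of the ETS factors Etv4 and Etv5. The product of Eif2b5 is the part of eIF2B that does its catalysis, which is to reload initiation factor eIF2 with GTP. When eIF2 is phosphorylated it blocks eIF2B, general translation slows, and the transcription factor ATF4 is made and turns on genes of amino acid supply. In the epidermis, basal keratinocytes divide on the basement membrane under keratins Krt5 and Krt14, spinous cells above them switch to Krt1 and Krt10, and keratins Krt6 and Krt16 mark wounded or hyperproliferative skin.

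Coding-sequence counts per library ran from 2209327 to 2812627 in HrasG12V shEif2b5 and from 2523896 to 5505386 in WT shScram, where library 3 was the deepest. Levels are given in CPM, a gene's counts relative to the total of its library, scaled by the trimmed mean of M values (TMM). Below, a called gene is one with an adjusted p (Benjamini-Hochberg) under 0.05 in edgeR's quasi-likelihood test of the 6 libraries. Fold changes are log2 differences of HrasG12V shEif2b5 over WT shScram, with the standard error (SE) of the fit. The libraries of HrasG12V shScram stood apart from each other, with libraries 1 and 3 at 0.90 and 0.81 on the first axis of a scaling plot of the 9 RNA libraries, library 2 at 0.00 and all libraries of the 2 groups compared at −0.54 to −0.10. They therefore stayed out of the main fit. All 18 basal markers were detected in each of the 6 libraries, with Krt5 at 6526 to 8631 CPM and Krt14 at 1998 to 3129 CPM. So were all 16 spinous markers, with Krt1 at 24052 to 49853 CPM and Krt10 at 19801 to 44706 CPM, so suprabasal RNA was present beside that of the basal cells the labels name.

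The 2 genes on which the design rests did not pass the test. Eif2b5 (chr16:20498817-20509323, plus strand, mm10) stood at 134, 128 and 143 CPM in HrasG12V shEif2b5 and at 158, 179 and 159 CPM in WT shScram. The 3 HrasG12V shEif2b5 libraries lay below the 3 WT shScram libraries without overlap, and the log2 difference was −0.28 (95% interval −0.54 to −0.02, unadjusted p 0.0336, adjusted p 0.397). In HrasG12V shScram, Eif2b5 stood at 127, 388 and 145 CPM, so libraries 1 and 3 of that group were at the level of HrasG12V shEif2b5 and library 2 was far above both. Against HrasG12V shScram the log2 difference was −0.68 (adjusted p 0.257), without its library 2 it was −0.00 (adjusted p 0.993), and against library 2 alone it was −1.52 (adjusted p 6.98e-05). Eif2b5 footprints stood at 82.7, 78.5 and 95.4 CPM in HrasG12V shEif2b5 and at 102, 106 and 102 CPM in WT shScram (log2 −0.27, adjusted p 0.445). After adjustment over all tested genes, a lower RNA level of the shRNA's target was thus not shown against WT shScram. Its unadjusted 95% interval lay wholly on the lower side. Against HrasG12V shScram a lower level rests on library 2. The listed subunits of eIF2B and eIF2 had log2 differences from −0.29 (Eif2b3) to 0.25 (Eif2s2), and none of the 8 was called by edgeR, DESeq2 or limma voom. Hras (chr7:141189105-141194005, minus strand) stood at 220, 282 and 307 CPM against 261, 227 and 210 CPM, with overlapping groups and a log2 difference of 0.22 (95% interval −0.06 to 0.51, adjusted p 0.596). These are counts for the whole gene, so mutant and normal transcripts of Hras are summed. Fbxo32, an F-box gene of a ubiquitin ligase, was at 8.14, 11.7 and 7.05 CPM against 10.5, 9.71 and 8.32 CPM (log2 difference −0.03, adjusted p 0.981).

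Of the 10823 genes tested, 123 were called (1.14%), 62 of them higher (0.573%) and 61 lower (0.564%) in HrasG12V shEif2b5. The rises were larger than the falls: the median log2 difference was 1.02 among the genes called higher and −0.75 among those called lower, and 34 of the 49 calls beyond 2-fold were higher. In all 123 called genes the 3 libraries of one group lay clear of the 3 of the other, as they did in 16% of all genes tested (7.67% higher and 8.34% lower). At an unadjusted p under 0.05 there were 1200 genes (11.1%), with 637 higher (5.89%) and 563 lower (5.2%). The median over all tested genes was 0.00. The count changed with the libraries in the fit. Fitted with all 9 RNA libraries it was 36 (25 higher and 11 lower), of which 35 were among the 123. Without WT shScram library 3 it rose to 218, and without any other single library it fell to between 44 and 60. In all 6 such fits 30 of the 123 genes passed, 22 higher and 8 lower.

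**Figure D1:**
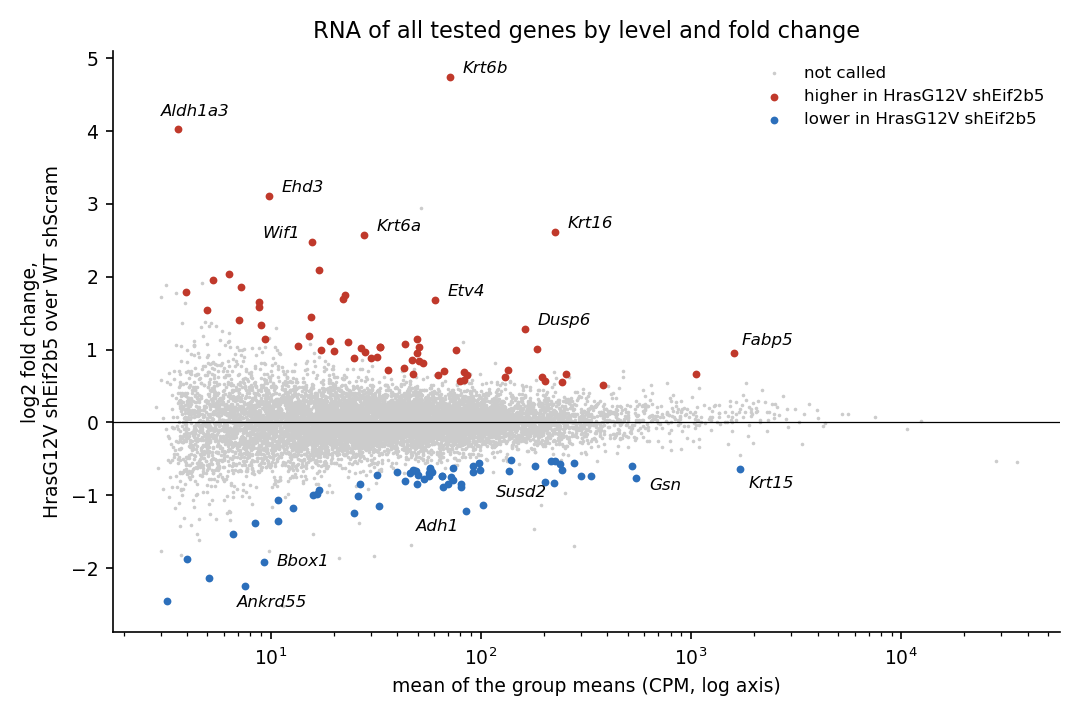
Each point is a tested gene, placed by the mean of its 2 group means (CPM, log axis) and its log2 fold change in RNA. Red points are the 62 genes called higher and blue points the 61 called lower in HrasG12V shEif2b5. Krt6b at 4.74 lies farthest up, and the blue points lie closer to 0 than the red ones (medians −0.75 and 1.02).

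Some of the genes that ERK switches on rose. Of 21 tested genes of ERK feedback and RAS-ERK output, 7 were called higher and none lower, their median log2 difference was 0.66, and 12 were higher and 1 lower at an unadjusted p under 0.05 (5.89% and 5.2% of all tested genes). Etv4 (chr11:101769742-101785371, minus strand), an ETS factor induced by ERK, stood at 104, 86.9 and 85.5 CPM in HrasG12V shEif2b5 and at 27.5, 31.5 and 27.8 CPM in WT shScram. Every library of the first group was well above every library of the second, and Etv4 rose 3.21-fold (log2 1.68, SE 0.15, adjusted p 1.48e-06). Dusp6 (chr10:99263231-99267489, plus strand), the phosphatase that switches off ERK, stood at 259, 214 and 215 CPM against 92.7, 79.7 and 111 CPM and rose 2.42-fold (log2 1.28, SE 0.14, adjusted p 2.53e-05). The groups again did not overlap.

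All 3 tested Sprouty genes, which encode feedback inhibitors of receptor signalling to RAS, rose as well. Spry2 (chr14:105891947-105896819, minus strand) was at 58.1, 71.3 and 76.1 CPM against 38, 28 and 34 CPM, which was a 2.05-fold rise (adjusted p 0.00171). Spry1 rose 2.06-fold (adjusted p 0.00328), from 18.4 to 25.9 CPM in the controls to 43.3 to 45.1 CPM. Spry4 was scarce, at 1.08 to 4.05 CPM in the controls and 7.8 to 11.3 CPM in HrasG12V shEif2b5, and had a log2 difference of 2.04 (SE 0.41, adjusted p 0.0145). The other called members were Etv5 (log2 1.02, adjusted p 0.0154), the close relative of Etv4, and Phlda1 (log2 0.72, adjusted p 0.0131). Etv4, Dusp6, Spry1 and Spry2 were called in each alternative fit, while Etv5 passed in 2 and Spry4 and Phlda1 in 3 of the 6 fits without 1 library.

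Among the ERK pathway's own components there was no call. None of 22 tested members of the cascade, from Hras to the ribosomal S6 kinases, passed in edgeR, DESeq2 or limma voom, 1 had an unadjusted p under 0.05, and their median log2 difference was −0.04. Several genes that ERK is known to induce did not pass the test either. Ccnd1, the cyclin that starts the cell cycle, was at 105 to 165 CPM against 136 to 173 CPM (adjusted p 0.741), and Myc was at 79.6, 111 and 111 CPM against 77.7, 94.4 and 59.1 CPM (adjusted p 0.378). Dusp4 and Dusp5 had log2 differences of 0.90 and 1.00 with adjusted p of 0.0782 and 0.151. Emp1 lay lower, at 40.4 to 58.5 CPM against 75.4 to 77.7 CPM (log2 −0.54, adjusted p 0.115).

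Immediate early genes, which both growth factors and the dispersal of tissue can induce, gave 1 call. Of 18 tested, Egr1 alone was called (54, 62.8 and 86.4 CPM against 42.9, 39.2 and 33.6 CPM, log2 0.82, adjusted p 0.0236), and the median of the list was −0.01. The Egr1 call was lost in the fit of all 9 RNA libraries (adjusted p 0.129). Fos and Jun had log2 differences of −0.07 and 0.26.

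Keratins of wounded skin rose. Krt6b (chr15:101676023-101680287, minus strand) stood at 132, 148 and 132 CPM in HrasG12V shEif2b5 and at 4.05, 6.22 and 5.06 CPM in WT shScram. It was the gene with the largest fold change and the smallest p of all those called, at 26.7-fold higher (log2 4.74, SE 0.19, adjusted p 5.19e-13). Krt16 (chr11:100246091-100248902, minus strand), the type I partner of Krt6, stood at 342, 361 and 452 CPM against 66, 73.8 and 52.1 CPM, a 6.1-fold rise (SE 0.15 on the log2 scale, adjusted p 6.6e-10). Krt6a (chr15:101689910-101694307, minus strand), the neighbour of Krt6b, was more variable, at 25.2, 50.4 and 66.2 CPM against 10.5, 6.99 and 6.87 CPM (5.92-fold, adjusted p 0.00126). None of the 3 genes had overlapping groups, and all 3 were called in each alternative fit. Krt6a and Krt6b are close copies, as are parts of Krt16 and other type I keratins, so how reads were shared between them is uncertain.

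These 3 were the called members among 12 tested genes of the wound and stress list, whose median log2 difference was 0.71, with 7 higher and 2 lower at an unadjusted p under 0.05. Sprr1b, a small proline-rich protein of the cornified envelope, was at 45.9, 93.6 and 133 CPM against 14.2, 22.1 and 3.62 CPM but varied too much to be called (log2 2.94, SE 0.78, adjusted p 0.312). Krt17 was at 2499, 1777 and 2205 CPM against 1418, 1077 and 1978 CPM (log2 0.54, adjusted p 0.263). Stfa3 and Serpinb3a, both protease inhibitors, had log2 differences of −0.21 and −0.01, and Il1rn, the interleukin-1 receptor antagonist, lay lower (log2 −0.76, adjusted p 0.155).

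**Figure D2:**
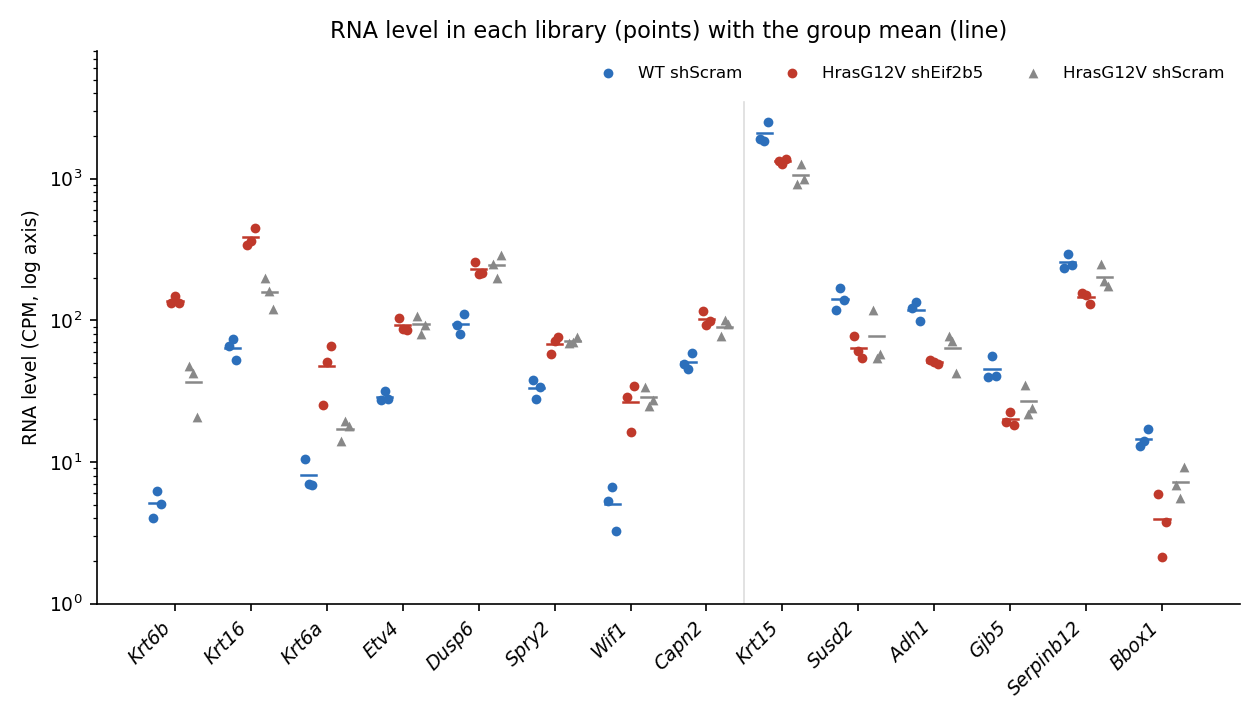
Points show the RNA level (CPM, log axis) of 14 genes in each of 3 libraries per group, and short lines the group means; blue is WT shScram, red HrasG12V shEif2b5 and grey triangles HrasG12V shScram. The 8 genes left of the divider were called higher and the 6 right of it lower in red than in blue, and red and blue points do not overlap for any of them. For Krt6b and Krt16 the red points lie above the grey ones as well (132 to 148 CPM against 20.7 to 47.5 CPM for Krt6b).

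Single genes of the epidermal differentiation complex and of hydrogen peroxide production were also called higher. Prr9 and Rptn encode proline-rich and repeat proteins of the epidermal differentiation complex on chromosome 3. Prr9 stood at 35.2, 34 and 35.2 CPM against 17.4, 4.66 and 9.58 CPM (log2 1.75, SE 0.28, adjusted p 0.00315). Rptn stood at 7.4, 19.2 and 13.2 CPM against 2.83, 6.61 and 3.98 CPM (log2 1.59, adjusted p 0.0358), and this call was lost in the fit of all 9 RNA libraries (adjusted p 0.322). Crnn, another gene of that complex and chosen here after its values were seen, was at 7.77 to 9.39 CPM against 0.389 to 3.07 CPM (log2 1.96, adjusted p 0.0231). Duox1, an oxidase that makes hydrogen peroxide at the cell surface, was at 13.3, 9.22 and 11.3 CPM against 3.24, 3.89 and 2.53 CPM (log2 1.86, adjusted p 0.00482). Its maturation factor Duoxa1, also chosen after its values were seen, had a log2 difference of 1.79 (adjusted p 0.0335), with 5.17 to 7.09 CPM against 1.55 to 1.99 CPM.

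In the rest of the cornified layer list differences ran both ways. Of 25 tested granular and cornified genes, Rptn was called higher and Klk5, a serine protease of scale shedding, lower (45.9, 59.2 and 55.9 CPM against 92.3, 121 and 68.9 CPM, log2 −0.79, adjusted p 0.0397). At an unadjusted p under 0.05 there were 4 higher and 4 lower, and the median was 0.01. Involucrin (Ivl) leaned up (log2 0.70, adjusted p 0.323), while Flg2 and Casp14, which act late in cornification, leaned down (log2 −0.97 and −0.68, adjusted p 0.13 and 0.137).

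Spinous genes leaned lower, though few passed singly. Of 16 tested members 13 had negative log2 differences, the median was −0.26, 7 were lower and none higher at an unadjusted p under 0.05, and 1 was called. That gene was Dsg1a, a desmosomal cadherin of suprabasal cells, at 188, 265 and 220 CPM against 382, 447 and 299 CPM (log2 −0.74, SE 0.15, adjusted p 0.0227; 0.0912 in the fit of all 9 RNA libraries). The 2 most abundant members, Krt1 and Krt10, had log2 differences of −0.54 and −0.53 with adjusted p of 0.258 and 0.32. Summed over the list, spinous RNA was at 60596, 47504 and 58517 CPM in HrasG12V shEif2b5 and at 73910, 99911 and 66460 CPM in WT shScram. The groups did not overlap, but this sum consisted mostly of Krt1 and Krt10, neither of which was called. In bulk RNA fewer cells of a type and less RNA per cell cannot be told apart. In ribosome footprints of the same 2 groups the median of the list had the opposite sign (0.36), and Krt1 and Krt10 had footprint log2 differences of 0.79 and 1.02 (adjusted p 0.671 and 0.657).

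The basal markers gave 1 call. Their summed RNA was at 19573, 17417 and 17954 CPM against 17277, 16299 and 21535 CPM, and 17 of the 18 were not called. Krt15, a keratin of basal and hair follicle bulge cells, was lower, at 1338, 1275 and 1383 CPM against 1898, 1832 and 2527 CPM (log2 −0.64, SE 0.15, adjusted p 0.0381). The Krt15 call did not hold in the fit of all 9 RNA libraries (adjusted p 0.162). Among 20 tested genes of desmosomes, hemidesmosomes and gap junctions 15 had negative log2 differences and 1 was called, the connexin gene Gjb5 (chr4:127354809-127358181, minus strand). Gjb5 stood at 19.2, 22.7 and 18.3 CPM against 39.7, 56 and 40.5 CPM, a log2 difference of −1.15 (SE 0.19, adjusted p 0.00265), and was called in each alternative fit.

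**Figure D3:**
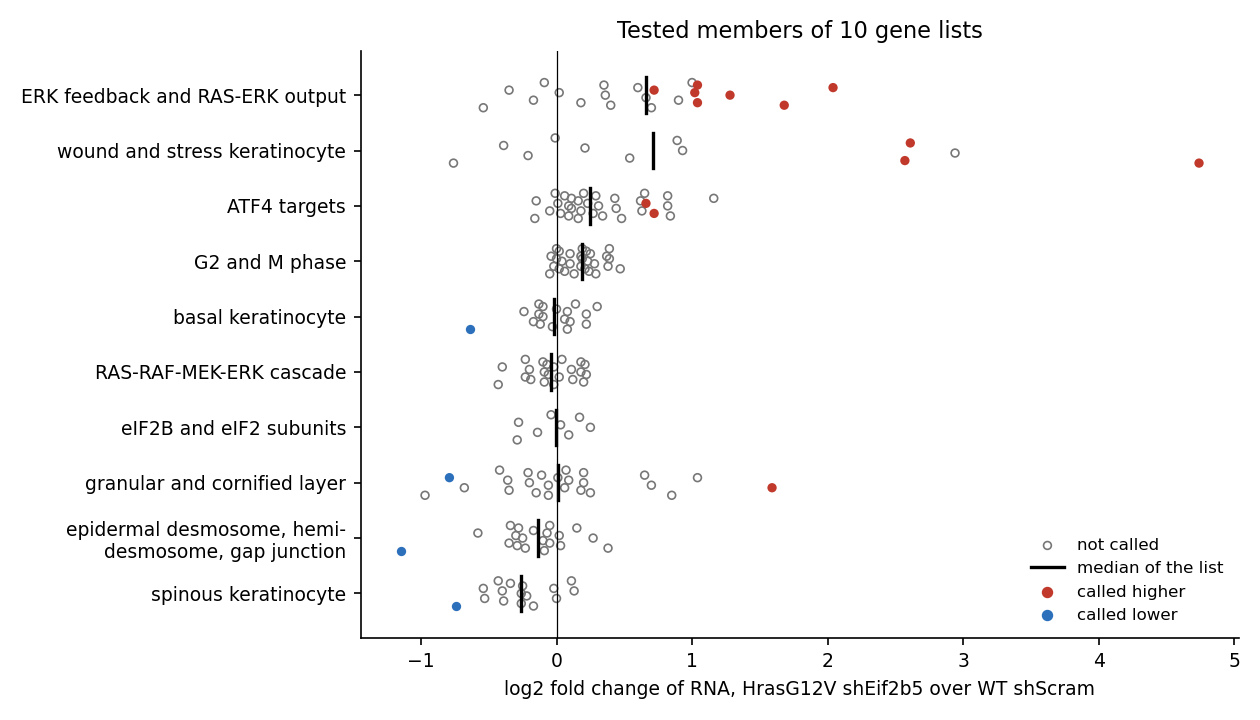
Each point is a tested member of a gene list placed by its log2 fold change in RNA; filled points were called (red higher, blue lower), open points were not, and the black bar is the median of the list. ERK output (median 0.66) and the wound and stress list (0.71) lie to the right, the spinous list (−0.26) to the left, and the RAS-RAF-MEK-ERK cascade (−0.04) at the centre.

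The summed levels of markers of other cells of the skin overlapped between the groups, but some single markers did not. Summed melanocyte RNA was at 726, 642 and 564 CPM against 483, 484 and 682 CPM, and none of its 12 tested genes was called, although 9 had positive log2 differences. Sox10 (17.4, 21.6 and 28.2 CPM against 13.8, 16.7 and 10.3 CPM, adjusted p 0.164) and Tyr (26.3, 24.5 and 16.9 CPM against 15.4, 14.8 and 15.2 CPM, adjusted p 0.252) were higher without overlap between the groups. Without overlap were also 3 of 6 tested Merkel cell markers (1 higher and 2 lower), 2 of 6 immune markers (both lower, the called Skint1 among them) and the 1 endothelial marker tested (higher). Over all tested genes 16% had no overlap (7.67% higher and 8.34% lower), and the marker counts were not tested against that share. Summed dermal fibroblast RNA was at 1169, 1091 and 1267 CPM against 2893, 1482 and 849 CPM, and none of its 8 tested genes was called. WT shScram library 1 held the most fibroblast and muscle RNA. Merkel cell markers summed to 45.4 to 53.3 CPM against 47.9 to 53.4 CPM, with Snap25 at 0 in all 6 libraries. Immune markers summed to 194 to 224 CPM against 183 to 217 CPM, with the Langerhans cell gene Cd207 at 0 in all 6; that list also holds Skint1, which keratinocytes express. The globin genes were at 0 in all 6, and endothelial and muscle markers summed to 44.1 CPM or less in every library. What part such cells have in the results was not tested.

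**Figure D4:**
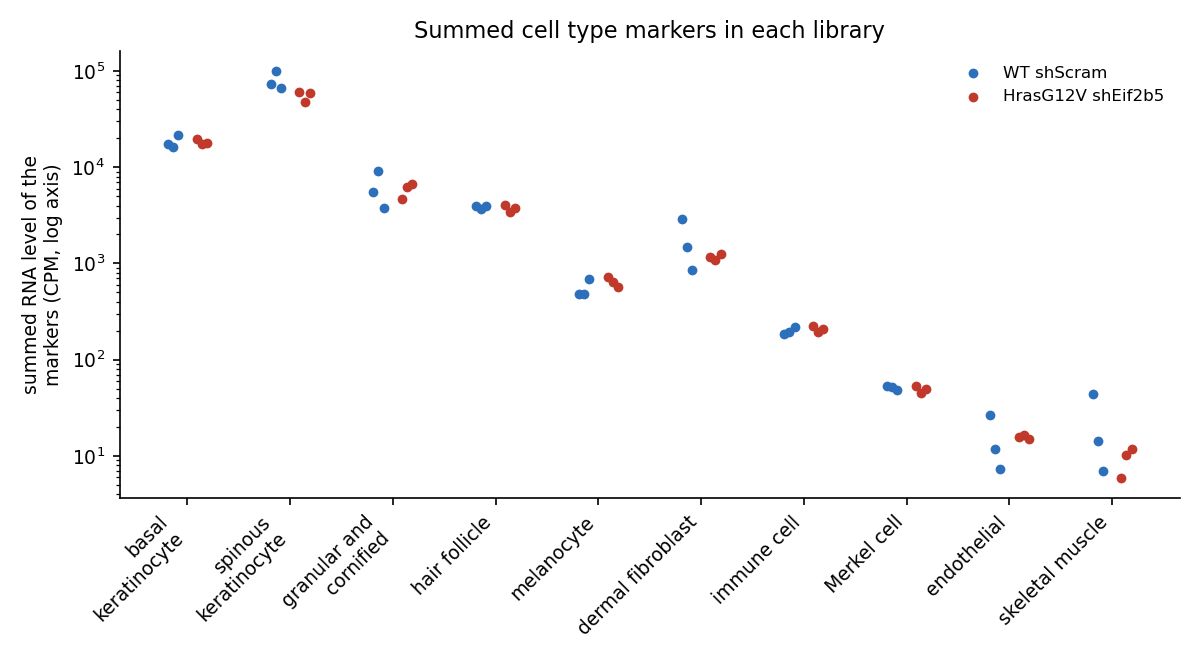
Points give the RNA level summed over the markers of 10 cell types (CPM, log axis) in each library, blue for WT shScram and red for HrasG12V shEif2b5. The spinous sums, which are mostly Krt1 and Krt10, do not overlap (47504 to 60596 CPM in red, 66460 to 99911 CPM in blue), while the basal, granular, melanocyte and fibroblast sums do.

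The genes that fell farthest were scarce. Among genes called lower that reached 10 CPM, Ankrd55 had the lowest log2 difference, at 1.85, 2.84 and 3.29 CPM against 9.71, 13.6 and 14.1 CPM (log2 −2.25, SE 0.34, adjusted p 0.00122). Bbox1, the last enzyme of carnitine synthesis, was at 5.92, 2.13 and 3.76 CPM against 12.9, 14 and 17 CPM (log2 −1.91, SE 0.32, adjusted p 0.00279). Adh1 (chr3:138260991-138290698, plus strand), an alcohol dehydrogenase that also oxidises retinol, was at 52.6, 51.1 and 49.3 CPM against 123, 135 and 98.9 CPM (log2 −1.21, SE 0.15, adjusted p 0.000101). In Adh1 the 3 HrasG12V shEif2b5 libraries differed from each other by little over 3 CPM, far below the lowest control. Susd2, a membrane protein, was at 77, 60.3 and 54 CPM against 118, 168 and 139 CPM (log2 −1.14, adjusted p 0.0005; 0.112 in the fit of all 9 RNA libraries).

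Further genes called lower act at the cell surface, in the barrier or on the cytoskeleton. Ror1, a receptor that binds Wnt5a, was at 14.4, 16.7 and 13.6 CPM against 33.2, 32.2 and 40.1 CPM (log2 −1.24, adjusted p 0.00171). Skint1, needed for the resident T cells of mouse epidermis to develop, was at 10.4, 8.87 and 3.76 CPM against 15.4, 21 and 17.4 CPM (log2 −1.17, adjusted p 0.043), and its relative Skint6 had a log2 difference of −1.35 (adjusted p 0.0124). Hal, which turns histidine into the ultraviolet-absorbing urocanate of the cornified layer, was at 171, 180 and 127 CPM against 274, 320 and 265 CPM (log2 −0.83, adjusted p 0.00279). Serpinb12, a protease inhibitor, was at 155, 151 and 131 CPM against 235, 292 and 246 CPM (log2 −0.82, adjusted p 0.00174). The actin-binding genes Gsn and Pdlim4 fell by 0.76 and 0.88 on the log2 scale (adjusted p 0.00315 and 0.00193). Skint1 and Hal were not called in the fit of all 9 RNA libraries (both with an adjusted p of 0.161).

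Among the genes that rose outside these groups, Wif1 is a secreted inhibitor of Wnt ligands. Wif1 (chr10:121033960-121100650, plus strand) stood at 28.9, 16.3 and 34.3 CPM against 5.26, 6.61 and 3.25 CPM, a 5.57-fold rise (SE 0.31 on the log2 scale, adjusted p 0.000187). It was the sole call among 24 tested Wnt targets and antagonists, whose median was 0.01. The Wnt target Axin2 had a log2 difference of −0.14. Ehd3, which acts in endosome recycling, was at 21.8, 13.1 and 18.8 CPM against 1.62, 1.17 and 2.71 CPM (8.64-fold, adjusted p 2.53e-05). Fgd5, an activator of the GTPase Cdc42, was at 27.8, 24.8 and 30.1 CPM against 8.5, 5.83 and 5.61 CPM (4.26-fold, adjusted p 2.53e-05). Fam167a (log2 1.69) and Krt19 (log2 1.65), a keratin of simple epithelia and hair follicles, were higher with adjusted p of 0.000294 and 0.0107.

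Aldh1a3, which makes retinoic acid from retinal, lay near the floor of detection in the controls. It stood at 8.88, 4.61 and 7.05 CPM against 0.405, 0.389 and 0.362 CPM (log2 4.03, 95% interval 2.86 to 5.21, adjusted p 0.0005), and was the sole call among 11 tested genes of retinoid metabolism. Capn2, the protease calpain-2, was at 116, 92.9 and 98.6 CPM against 49, 45.5 and 58.4 CPM (2-fold, adjusted p 0.00106). Fabp5, the epidermal fatty acid carrier, was at 2653, 1774 and 1875 CPM against 846, 1107 and 1323 CPM (1.93-fold, adjusted p 0.0109; 0.0583 in the fit of all 9 RNA libraries). Col27a1, a fibrillar collagen, was at 251, 194 and 297 CPM against 126, 146 and 101 CPM (2.01-fold, adjusted p 0.00233). In the fit of all 9 RNA libraries its adjusted p was 0.557, and HrasG12V shScram RNA stood at 84, 207 and 75.3 CPM. Col27a1 footprints were scarce, at 6.64, 5.8 and 6.45 CPM against 4.46, 5.44 and 7.51 CPM (log2 0.11, adjusted p 0.936). Of 25 tested matrix and integrin genes, the secreted factor Ctgf was higher (62.9, 51.4 and 63.9 CPM against 30.8, 22.5 and 30.4 CPM, log2 1.08, adjusted p 0.00167) and the matrix protein Tgfbi lower (log2 −0.85, adjusted p 0.00706).

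The genes that ATF4 controls leaned upward by small amounts. Of 32 tested, 28 had positive log2 differences, the median was 0.25 (0.00 over all tested genes), and 2 were called. At an unadjusted p under 0.05, 9 were higher and none lower, beside 5.89% and 5.2% of all tested genes. In HrasG12V shScram against WT shScram the median of the list was 0.14. Slc7a5 (chr8:121881150-121907694, minus strand), a transporter of large neutral amino acids, stood at 314, 264 and 349 CPM against 185, 232 and 174 CPM (log2 0.66, SE 0.14, adjusted p 0.0228). Pck2 (chr14:55540266-55551242, plus strand), the mitochondrial enzyme that makes phosphoenolpyruvate, stood at 49.6, 41.9 and 44.2 CPM against 29.5, 25.6 and 27.3 CPM (log2 0.72, SE 0.17, adjusted p 0.0357). Both calls were lost in the fit of all 9 RNA libraries (adjusted p 0.103 and 0.11), while DESeq2 called 4 members and limma voom 2. Atf4 itself was at 231, 275 and 257 CPM against 183, 183 and 181 CPM, clear of the controls but just outside the threshold (log2 0.48, adjusted p 0.0551). Ddit3, the stress factor CHOP downstream of ATF4, was at 5.18, 6.74 and 14.1 CPM against 10.9, 8.94 and 5.24 CPM (log2 0.09, adjusted p 0.954), and Asns, asparagine synthetase, had a log2 difference of 0.27 (adjusted p 0.677). Some members varied widely within the controls: Slc7a11, the cystine transporter, was at 1.62, 14 and 3.07 CPM there and at 11.3 to 14.1 CPM in HrasG12V shEif2b5 (log2 1.16, adjusted p 0.497).

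The 4 kinases that phosphorylate eIF2 (Eif2ak1 to Eif2ak4) had log2 differences from −0.20 to 0.22, and none was called by any of the 3 tools. The phosphatase subunit Ppp1r15a, which reverses that phosphorylation, was at 8.51, 19.2 and 27.2 CPM against 18.2, 12.8 and 11.6 CPM (adjusted p 0.728). Nck1, an adaptor protein that also takes part in eIF2 dephosphorylation, was the 1 call of the 10 tested, at 8.14, 13.5 and 9.86 CPM against 23.1, 21.4 and 19.7 CPM (0.501 times the WT level, SE 0.23 on the log2 scale, adjusted p 0.0359). The Nck1 call was lost with DESeq2, with limma voom and in the fit of all 9 RNA libraries (adjusted p 0.166), and it passed in 1 of the 6 fits without 1 library. None of the 23 cytosolic tRNA synthetases or of the 31 other initiation and elongation factors tested was called by edgeR, DESeq2 or limma voom (1 and 0 at an unadjusted p under 0.05). Of 82 cytosolic ribosomal protein genes 73 had positive log2 differences (median 0.12), and Rpl41 alone was called (log2 0.66, adjusted p 0.0442; 0.359 in the fit of all 9 RNA libraries).

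Genes of cell division leaned upward with no call by edgeR, DESeq2 or limma voom. Of 28 tested genes of G2 and M phase 24 had positive log2 differences, with a median of 0.19 and 6 higher at an unadjusted p under 0.05. Birc5, survivin, had the smallest p of these (69.6, 48.6 and 55.4 CPM against 34.4, 41.2 and 48.6 CPM, log2 0.47, adjusted p 0.27). Mki67 had a log2 difference of 0.25, and the 29 S phase genes had a median of 0.05. In the list of glutathione and NRF2 genes, Mgst1, a membrane glutathione transferase, was called (42.9, 38.3 and 35.2 CPM against 21, 19 and 23 CPM, log2 0.88, adjusted p 0.0159). Nqo1 and Gsta4 of the same list were scarce and uncalled at log2 differences of 1.78 and 1.91 (adjusted p 0.0561 and 0.0652). No gene was called by any of the 3 tools among those tested of the Notch pathway, the interferon response, p53 targets, ER chaperones, mitochondrial ribosomal proteins, nuclear OXPHOS subunits, the proteasome, cholesterol synthesis or glycolysis. In edgeR's test the medians of these lists lay between −0.10 and 0.06, and from 0 to 11.1% of their members had an unadjusted p under 0.05. Of 25 tested hair follicle genes Krt75, a keratin of the follicle's companion layer, was called (63.3, 56 and 64.4 CPM against 39.7, 19.4 and 40.3 CPM, log2 0.86, adjusted p 0.0442; 0.115 in the fit of all 9 RNA libraries). Of 6 tested cytokine genes Cxcl14, a chemokine of resting epithelium, was called (406, 486 and 456 CPM against 326, 307 and 314 CPM, log2 0.51, adjusted p 0.0429; 0.178 in the fit of all 9 RNA libraries).

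Promoters of the called genes were read from RefSeq (GRCm38.p6) as windows of 250 bases before to 50 bases after the start, which matched 42 of the 62 genes called higher and 47 of the 61 called lower. The AP-1 element TGANTCA, searched on both strands, stood in 5 of 46 windows of the genes called higher (10.9%), in 10 of 66 of those called lower (15.2%) and in 530 of 11015 of all tested genes (4.81%). Counted by gene it stood in 5 of 42 genes called higher, in 9 of 47 called lower and in 500 of 8599 of all tested genes with a window. Among the genes called lower the 2 counts differ since Prss23 gave 7 of the 66 windows and 2 overlapping ones of these held it. The shares were not tested against each other. The ETS element CCGGAAGT, searched in the same way, stood in 1 of the 46 windows (2.17%), in none of the 66 and in 8.42% of those of all tested genes, and the ATF4 element TGATGNAA in 4.35%, 3.03% and 2.07%. The CRE TGACGTCA stood in 2.17%, 0% and 3.13%, and the SREBP element TCACNCCAC in 0%, 3.03% and 1.17%. Matches were counted for each element separately, overlaps included. A match is a description of letters and shows no binding.

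The stretches around the match are shown for genes named above, 5′ to 3′ on the gene's strand, with the matched letters in capitals. Capn2 (chr1:182517757-182517823, minus strand), Prr9 (chr3:92124049-92124115, minus strand) and Rptn (chr3:93393573-93393639, plus strand) were called higher. Hal (chr10:93488518-93488565, plus strand) and Serpinb12 (chr1:106934374-106934440, plus strand) were called lower and hold the AP-1 element just as the first 3 do. In Pck2 (chr14:55540133-55540200, plus strand) the capitals mark the ATF4 element, read on the opposite strand. It is shown as the one member of the ATF4 list with a match among the called genes. Slc7a5, the other called member, had no window to search, and neither had Etv4, Krt6b, Krt16 or Krt6a. The ATF4 element also stood in windows of Duox1 (called higher) and of Klk5 and Gpam (called lower), which are on other lists or none, and the AP-1 element in that of Crnn (called higher).
Capn2: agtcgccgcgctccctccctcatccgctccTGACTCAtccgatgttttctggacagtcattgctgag
Prr9: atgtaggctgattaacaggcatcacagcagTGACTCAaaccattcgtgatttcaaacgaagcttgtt
Rptn: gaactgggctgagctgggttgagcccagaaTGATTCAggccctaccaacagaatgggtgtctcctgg
Hal: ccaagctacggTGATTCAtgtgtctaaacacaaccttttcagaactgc
Serpinb12: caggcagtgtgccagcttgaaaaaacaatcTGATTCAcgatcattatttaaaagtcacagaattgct
Pck2: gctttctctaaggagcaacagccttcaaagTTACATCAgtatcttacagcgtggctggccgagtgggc
The first base of the match lay 183 bases before the start in Capn2, 138 in Prr9, 96 in Rptn, 239 in Hal, 45 in Serpinb12 and 103 in Pck2.

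How far single libraries carry the calls is given here for named called genes that did not pass in all 6 fits without 1 library. Etv5, Spry4 and Phlda1 are given above. Lamp2 and other genes first named in the closing sections are given there. Bbox1, Gsn and Tgfbi passed in 5 of these fits and Krt19 in 4. Rptn, Fabp5 and Slc7a5 passed in 3, and Skint1, Egr1, Dsg1a, Rpl41 and Mgst1 in 2. Rnase1, Skint6, Tesc, Nck1, Krt15, Klk5, Krt75, Pck2, Gpam, Crnn and Duoxa1 passed in 1, and Pex3 and Cxcl14 in 0. For Pck2 and Rpl41 the largest adjusted p came without HrasG12V shEif2b5 library 1 (0.126 and 0.213). For Rptn, Bbox1, Rnase1, Skint6, Tesc, Gsn, Krt15, Cxcl14 and Mgst1 it came without library 2 (0.0562 to 0.273), and for Krt19, Skint1, Pex3, Nck1, Egr1, Krt75, Tgfbi, Slc7a5 and Gpam without library 3 (0.0547 to 0.213). For Fabp5 it came without WT shScram library 1 (0.0819), and for Dsg1a and Klk5 without WT shScram library 2 (0.107 and 0.191). For Crnn and Duoxa1 the largest adjusted p over these fits was 0.158 and 0.174.

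Ribosome footprints of the same 2 groups, fitted in the same way, gave 44 calls of 11255 genes tested (0.391%), 36 higher (0.32%) and 8 lower (0.0711%). Of the 123 genes called in RNA 120 were also tested in footprints, and 16 were called there in the same direction, which is 13% of the RNA calls and 36.4% of the footprint calls. None was called in the opposite direction. Genes called higher in RNA lay nearer to their RNA difference in footprints than genes called lower: the median footprint log2 difference was 0.92 for the genes called higher in RNA and −0.27 for those called lower. Footprints had the sign of the RNA for 57 of 60 genes called higher and for 51 of 60 called lower, beside 56.7% of all 10512 genes tested in both. Bbox1 was the 1 gene called lower in both (footprint log2 −1.01, adjusted p 0.0171). Whether the RNA and footprint differences differ from each other was not tested.

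The ERK genes Etv4 and Dusp6 were called in footprints too. Etv4 footprints stood at 67, 48 and 50.9 CPM against 18.4 to 18.8 CPM (log2 1.57, adjusted p 0.000279), and Dusp6 footprints at 288, 302 and 281 CPM against 116, 117 and 127 CPM (log2 1.27, adjusted p 0.000181). Wif1, Capn2, Ehd3, Spry1, Spry4, Etv5, Ctgf and Fabp5 were called in footprints as well. Of the 7 called ERK output genes, Spry2 (footprint log2 0.99, adjusted p 0.0877) and Phlda1 (footprint log2 −0.03, adjusted p 0.964, beside 0.72 in RNA) were not. The stress keratins were not, and library 1 of HrasG12V shEif2b5 lay below the other 2 in footprints. Krt6b was at 68.8, 246 and 196 CPM against 2.79, 5.67 and 5.26 CPM (log2 5.19, adjusted p 0.119) and Krt16 at 102, 560 and 546 CPM against 15.6, 23.4 and 27.8 CPM (log2 4.17, adjusted p 0.22). In RNA that library held 132 CPM of Krt6b beside 148 and 132 CPM in libraries 2 and 3. It held the least Krt16 (342 CPM beside 361 and 452 CPM) and the least Krt6a (25.2 CPM beside 50.4 and 66.2 CPM). Dsg1a and Krt15, lower in RNA, had footprint log2 differences of 0.13 and 0.12 (adjusted p 0.875 and 0.879).

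**Figure D5:**
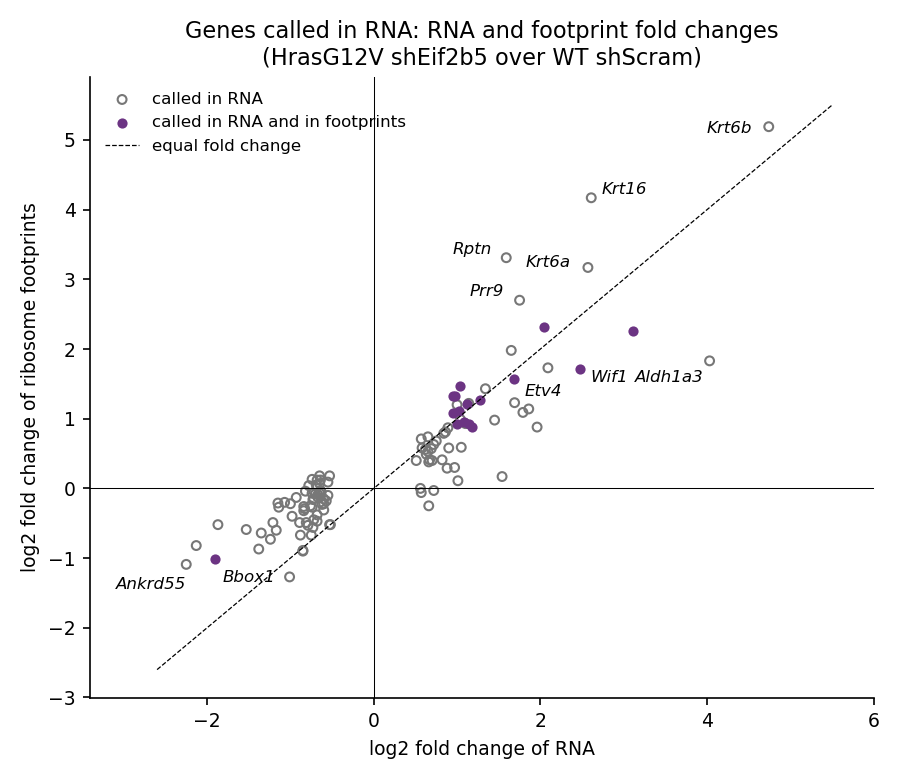
Each point is 1 of the 120 genes called in RNA and tested in footprints, placed by its log2 fold change in RNA (horizontal) and in ribosome footprints (vertical); purple points were called in both. Points called higher in RNA lie about the dashed line of equal fold change (footprint median 0.92), while most called lower in RNA lie above it, near 0 in footprints (median −0.27).

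HrasG12V shScram RNA allows the same genes to be set beside an Hras group labelled with the scrambled shRNA. The 2 comparisons share the HrasG12V shEif2b5 libraries, so only each gene's or list's own values are given. Of 11096 genes tested between the 2 HrasG12V groups, 1444 were called (13%), 580 higher (5.23%) and 864 lower (7.79%) in HrasG12V shEif2b5, but without HrasG12V shScram library 2 the count was 3150 and with that library as the only control it was 17. Etv4 stood at 108, 80.5 and 92.2 CPM in HrasG12V shScram, overlapping its level in HrasG12V shEif2b5 (log2 difference −0.03, SE 0.15, adjusted p 0.917). Dusp6 stood at 248, 200 and 290 CPM (log2 −0.10, SE 0.16, adjusted p 0.704) and Wif1 at 33.6, 25 and 27.2 CPM (log2 −0.14, SE 0.26, adjusted p 0.74). For these 3 genes no difference between the HrasG12V groups was detected at this depth. Of the called ERK output genes, Etv4, Dusp6, Spry1, Spry2, Spry4 and Etv5 lay above every WT shScram library in all HrasG12V shScram libraries. Phlda1 did not, at 70.1, 239 and 74.7 CPM in HrasG12V shScram beside 106, 103 and 97.8 CPM in WT shScram.

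Krt6b and Krt16 differed between the HrasG12V groups whichever HrasG12V shScram libraries were used. Krt6b stood at 47.5, 42.2 and 20.7 CPM in HrasG12V shScram, between the WT libraries and those of HrasG12V shEif2b5, and was 1.91 higher on the log2 scale in HrasG12V shEif2b5 (SE 0.23, adjusted p 0.000512). Krt16 stood at 199, 160 and 120 CPM, also in between (log2 1.27, SE 0.18, adjusted p 0.00187), and Krt6a at 14.1, 19.4 and 17.9 CPM (log2 1.48, SE 0.29, adjusted p 0.00633). The wound and stress list as a whole did not follow these keratins. Its summed RNA was at 5809, 4528 and 5139 CPM in HrasG12V shScram and lower, at 4209, 3950 and 4103 CPM, in HrasG12V shEif2b5. Its median log2 difference from WT shScram was 1.29 in HrasG12V shScram and 0.71 in HrasG12V shEif2b5. Pck2 stood at 25.6, 27.8 and 31.7 CPM, near its WT level and below HrasG12V shEif2b5 (log2 0.67, SE 0.17, adjusted p 0.0188). Slc7a5, the other called ATF4 target, stood at 274, 325 and 295 CPM, near HrasG12V shEif2b5 (log2 0.05, SE 0.15, adjusted p 0.849). Among the genes lower than in WT, Nck1 stood at 38.8, 20 and 31.7 CPM in HrasG12V shScram and was lower in HrasG12V shEif2b5 (log2 −1.56, SE 0.26, adjusted p 0.00291), and Ror1 stood at 24.6, 28.3 and 33.7 CPM (log2 −0.95, SE 0.21, adjusted p 0.0102). Against HrasG12V shScram library 2 alone, the calls of Krt6a (log2 1.27, adjusted p 0.335), Pck2 (0.71, adjusted p 0.32), Nck1 (−0.92, adjusted p 0.328) and Ror1 (−0.91, adjusted p 0.262) were lost. Adh1, at 77.1, 71.1 and 42.3 CPM, did not differ beyond the test (log2 −0.31, SE 0.20, adjusted p 0.318).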

How the data were processed

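RNA-seq counts of 3 HrasG12V shEif2b5 and 3 WT shScram libraries were compared. The deposited table gives raw counts for each gene symbol, limited to coding sequence, and the authors made it with Bowtie, TopHat2 and HTSeq on mm10, per the submitters' processing notes. Versions, strand setting and role of each tool are not given in the sources used here. Genes passed filterByExpr (minimum count 10, minimum total 15). TMM factors and edgeR 4.0.16 (R 4.3.3) quasi-likelihood tests with robust dispersion and Benjamini-Hochberg adjustment over all tested genes were used; the common coefficient of variation was 0.13. CPM were scaled over the 9 RNA libraries, or the 9 footprint libraries. HrasG12V shEif2b5 against HrasG12V shScram was tested in the fit of 9 RNA libraries, and footprints in their own 6-library fit. The code was tested on simulated data. Libraries of a group were checked for copies and differed. Intervals are at 95%.

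Coordinates and strands are from GENCODE vM21 (mm10), with 96.3% of symbols matched directly and 2.92% through synonyms. Genes that share sequence or overlap may share reads. Alternatives used limma 3.58.1 and DESeq2 1.42.0. Figures were drawn with matplotlib 3.10.9.

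Named genes were Hras, Eif2b5 and Fbxo32, the 12 highest and 12 lowest fold changes among called genes at 10 CPM or more without overlap (predicted and date-like symbols left out), up to 4 called or 2 uncalled members of each gene list by p, and the 6 smallest p in each direction at 100 CPM or more. Other members of lists illustrate those lists. The comparison, the gene lists and this rule were chosen with earlier results of these data known. Lists are described by counts and medians, with no set test. One gene that the rule selects is not reported here.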

Additional observations from a re-analysis of the deposited data

Results flagged for a closer look

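For 3 of the genes called against WT shScram the RNA of the 2 HrasG12V groups also differed in the test of that difference, whichever HrasG12V shScram libraries served as controls. Krt6b was 1.91 higher on the log2 scale in HrasG12V shEif2b5 than in HrasG12V shScram (adjusted p 0.000512), 2.00 higher without HrasG12V shScram library 2 (adjusted p 6.94e-05) and 1.70 higher against that library alone (adjusted p 0.0011). Krt16 was 1.27 higher in all 3 fits (adjusted p 0.00187, 0.000289 and 0.0143). Lamp2, a lysosomal membrane protein, stood at 45.9, 47.2 and 36.2 CPM in HrasG12V shEif2b5, at 157, 96.6 and 161 CPM in HrasG12V shScram and at 73.7, 64.5 and 72.3 CPM in WT shScram. Its difference between the HrasG12V groups was −1.69 (adjusted p 0.000229), −1.87 without library 2 (adjusted p 6.97e-07) and −1.15 against library 2 alone (adjusted p 0.021). A single library as control is assumed to vary like the other groups. The call of Lamp2 against WT shScram (log2 −0.69, adjusted p 0.0277) passed in 2 of the 6 fits without 1 library, with a largest adjusted p of 0.174. Lamp2 footprints had a log2 difference of 0.05 against WT shScram (adjusted p 0.918).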

How the results depend on the processing

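The 123 calls between HrasG12V shEif2b5 and WT shScram became 292 without a filter, 80 with limma voom, 36 with all 9 RNA libraries in the fit, 80 with those less HrasG12V shScram library 2, and 77 with a replicate block, and ran from 44 to 218 when each library was left out. Other size factors, the DESeq2 Wald test, a stricter filter (mean of 10 CPM), offsets for coding GC and length, and leaving out the 20 most abundant genes gave 91 to 125. In all alternatives that tested them 26 genes stayed called (20 higher and 6 lower). Same-numbered deviations from the group means correlated at −0.188, 0.0153 and −0.315. With 3 libraries per group such values cannot decide whether replicate numbers pair the libraries. Between the HrasG12V groups the 1444 calls became 1226 with the replicate block, ran from 197 to 3150 when each library was left out, and were 17 without HrasG12V shScram libraries 1 and 3, an alternative chosen after seeing the data. The 44 footprint calls became 102 with the replicate block and ran from 15 to 215 when each library was left out. The cause of these shifts was not tested. No named gene that was called changed sign. Over the 48 named called genes, 66 of 520 values under other settings and 91 of 288 with 1 library left out no longer passed. Of the 47 uncalled named genes, Mrpl52 passed without a filter (0.52) and without WT shScram library 3 (0.63), and Hist1h4k with the GC and length offsets (−0.69). Genes under about 10 CPM rest on few counts, so their fold changes have wide errors.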

Other observations

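A few called genes of peroxisomes and fatty acid metabolism were lower in HrasG12V shEif2b5. They were chosen after their values were seen and are not the members of a list. Catalase (Cat), the peroxisomal enzyme that breaks down hydrogen peroxide, was at 52.6, 47.2 and 34.8 CPM against 62.3, 78.9 and 75.9 CPM (log2 −0.68, adjusted p 0.0448). Pex3, needed to build peroxisomes, was at 8.51, 6.74 and 5.64 CPM against 12.9, 15.9 and 15.6 CPM (log2 −1.07, adjusted p 0.043), though it passed in 0 of the 6 fits without 1 library. Acsl1 and Acsl4, which activate long-chain fatty acids, had log2 differences of −0.53 and −0.72, and Gpam, which starts glycerolipid synthesis, of −0.67 (adjusted p 0.043, 0.043 and 0.0358). Of 23 tested genes on the list of fatty acid and sphingolipid synthesis Gpam was the sole call, and the median of that list was −0.05.

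Among genes called higher outside the lists, again chosen after their values were seen, were an mTOR inhibitor, a pseudokinase and further MAP kinase phosphatases. Deptor, an inhibitor of mTOR, was at 24.1, 29.1 and 24.9 CPM against 17, 10.1 and 9.95 CPM (log2 1.12, adjusted p 0.0159; footprint log2 1.21, adjusted p 0.00492). Trib2, a pseudokinase, was at 38.9, 25.2 and 33.4 CPM against 19, 16.7 and 17.2 CPM (log2 0.89, adjusted p 0.0336). Dusp2 was at 7.05 to 7.8 CPM against 2.33 to 2.71 CPM (log2 1.54, adjusted p 0.0366). Dusp7 was at 282, 254 and 338 CPM against 197, 218 and 178 CPM (log2 0.56, adjusted p 0.0397), and its footprint log2 difference was 0.00 (adjusted p 0.998). Dusp2 and Dusp7 passed in 0 of the 6 fits without 1 library, Cat, Acsl1 and Acsl4 in 1, Trib2 in 2 and Deptor in 4.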
